A study of Mus musculus with 8 samples.

Results

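The 9 genes described here encode the cyclins and kinases that take a cell through G1, together with the main protein they act on. They are the D-type cyclins Ccnd1, Ccnd2 and Ccnd3, their kinase partners Cdk4 and Cdk6, the E-type cyclins Ccne1 and Ccne2 with their partner Cdk2, and the retinoblastoma gene Rb1. They were chosen by name, with earlier results of these data known, and all 9 were found among the 18193 genes measured. Each gene is read by its probe set (a group of short oligonucleotides against 1 transcript) with the highest mean over the 8 arrays, and the other probe sets serve as a check. Together the 9 genes have 26 probe sets.

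Messenger RNA was measured in mouse marrow cells in 4 groups of 2 arrays each. CD45.1+ hosts had been transplanted with a 1 to 1 mix of CD45.1+ marrow and CD45.2+ marrow of BCR-ABL x SCL-tTA mice. The tyrosine kinase fusion BCR-ABL drives chronic myeloid leukaemia, and here the SCL-tTA driver turns it on in blood stem and progenitor cells when tetracycline is taken away. In the leukemic groups the sorted CD45.1+ cells, themselves free of the transgene, had lived beside BCR-ABL+ cells for 4 weeks after that. In the normal groups they came from chimeras whose CD45.2+ marrow lacked BCR-ABL, also 4 weeks after tetracycline removal. HSC are CD150+ CD48- KSL cells, and KSL are lineage-negative, Kit+ and Sca-1+ cells as a whole. The CD45.1 mark is shared by the co-transplanted cells and the hosts, so it does not separate them. The sources used here give neither strain nor age, nor say that replicates came from separate animals. The p-values thus reflect the spread between these arrays, which may be partly or, in the leukemic groups, wholly technical. Values are log2 expression, on which a difference of 1 is a doubling, and fewer cells of a type and less RNA per cell cannot be told apart in such bulk samples.

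D-type cyclins are made in response to growth signals and activate CDK4 and CDK6, which phosphorylate RB1. Unphosphorylated RB1 holds E2F transcription factors inactive. Once phosphorylated RB1 lets go of them, E2F factors induce E-type cyclins, which with CDK2 complete the phosphorylation and start DNA replication. In blood stem cells CDK6 is known for its part in the exit from quiescence, and it is known to be scarce in the long-term stem cells of human blood.

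Markers ran with the sort gates. In HSC of normal mice all 8 long-term HSC markers measured were higher than in KSL, with a median difference of 2.79. Of these 8, 4 passed the test (1.8% of all genes). Slamf1, the gene of CD150, is 1 of the 8 but not of the 4. Since HSC were sorted as CD150+ and CD48-, Slamf1 and Cd48 are no independent check of the gates. Slamf1 was at 8.90 and 9.36 in HSC and at 5.76 and 7.06 in KSL of normal mice. Cd48 was at 6.19 and 8.12 in HSC and at 10.44 and 10.40 in KSL. Ly6a, the gene of Sca-1, was not analysed here. The HSC arrays were noisier: the correlation between replicates across genes was 0.965 in HSC normal and 0.957 in HSC leukemic, against 0.988 and 0.994 in KSL. Replicate 1 of both normal groups had a male pattern of sex-linked genes and replicate 2 did not, so these replicates were not from the same source. No leukemic array had this pattern, so leukemic minus normal is also unbalanced for sex.

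The largest contrast among the 9 genes was in Cdk6. It was 2.39-fold higher in HSC of leukemic than of normal mice, while Cdk4 was 1.51-fold lower. All 3 probe sets of each gene gave these directions, though neither difference passed the test over all genes. In leukemic mice Cdk6 in HSC lay at the level of KSL on the probe set used (a difference of 0.06). On the second probe set it lay below KSL (-0.32). Ccnd1 was 2.12-fold higher in HSC than in KSL of leukemic mice. Ccnd1 there was the only 1 of the 54 tests (9 genes in 6 comparisons) to pass at an adjusted p under 0.05 over all genes in limma. Another 17 of the 54 had a raw p below 0.05, against 7.95% to 23.0% of all genes in the 6 comparisons, which share arrays. The values on single arrays therefore precede each test.

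**Figure D1:**
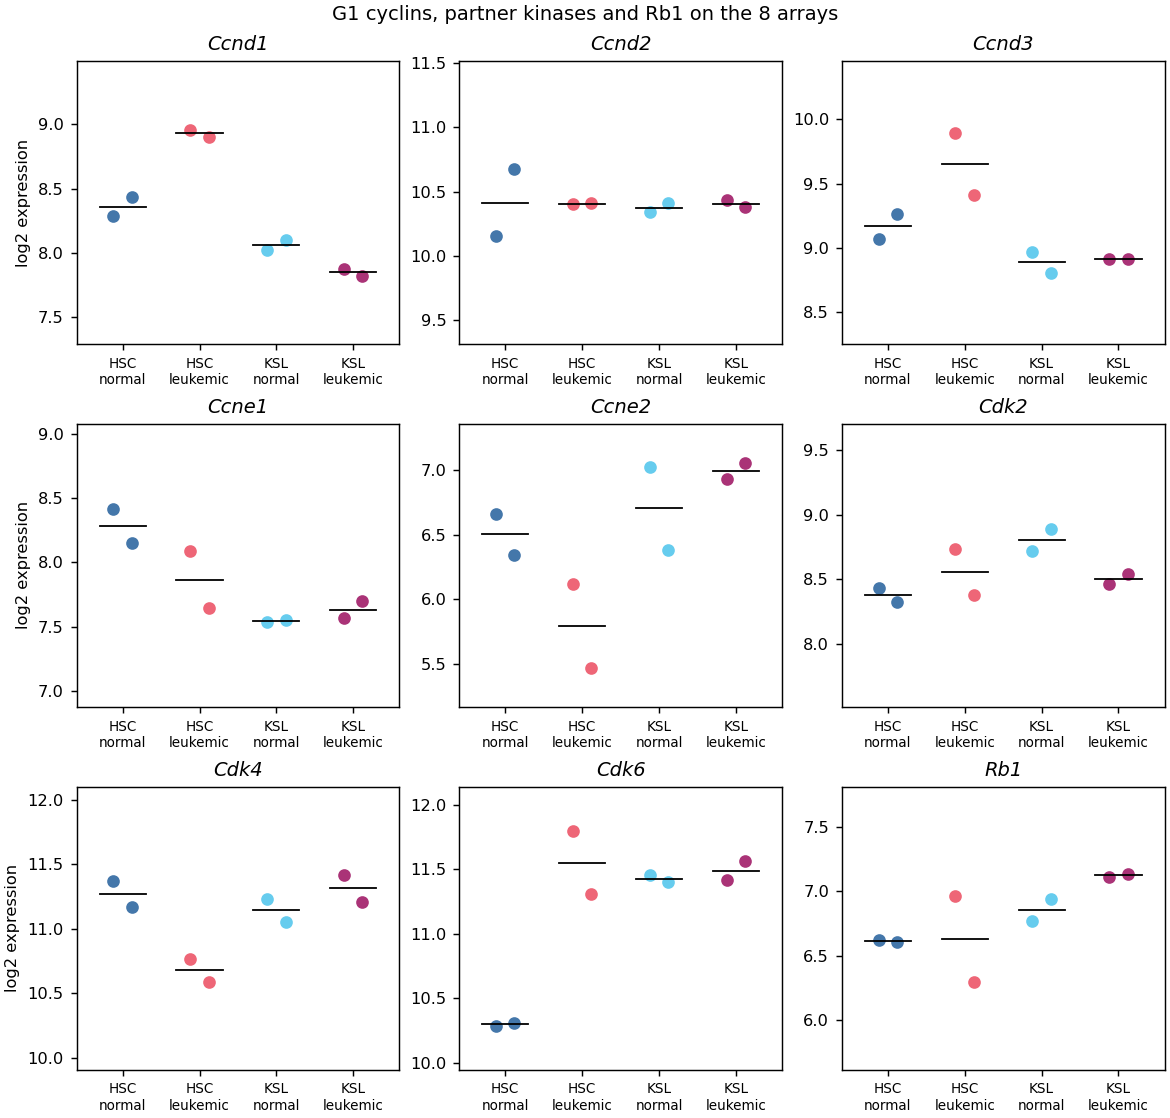
Log2 expression of the 9 genes on the 8 arrays, by group, with 1 panel per gene. Each point is an array, horizontal lines are means of 2 arrays, and every panel spans the same 2.2 log2 units. Cdk6 is low on both arrays of HSC normal (10.29 and 10.31), Cdk4 is low on both of HSC leukemic (10.77 and 10.59), and Ccnd1 is highest on both of HSC leukemic (8.96 and 8.90).

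CDK4 and CDK6 are closely related kinases that use the same D-type cyclins. The 250 bases before their gene starts are shown because the leukemic minus normal differences of their transcripts in HSC had opposite signs. The sequences are from RefSeq, build GRCm38.p6, where 5 of the 9 genes matched (Ccnd3, Ccne1, Cdk2, Cdk4 and Cdk6). Both genes lie on the plus strand. The Cdk4 stretch is at chr10:127063285-127063534 and the Cdk6 stretch at chr5:3343643-3343892. Capitals mark CACGTG, the E-box to which MYC proteins bind with their partner MAX.
Cdk4: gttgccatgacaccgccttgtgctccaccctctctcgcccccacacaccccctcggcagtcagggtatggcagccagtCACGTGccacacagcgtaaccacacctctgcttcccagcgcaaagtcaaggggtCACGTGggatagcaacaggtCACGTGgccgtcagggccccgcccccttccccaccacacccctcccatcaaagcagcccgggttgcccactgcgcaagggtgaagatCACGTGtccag
Cdk6: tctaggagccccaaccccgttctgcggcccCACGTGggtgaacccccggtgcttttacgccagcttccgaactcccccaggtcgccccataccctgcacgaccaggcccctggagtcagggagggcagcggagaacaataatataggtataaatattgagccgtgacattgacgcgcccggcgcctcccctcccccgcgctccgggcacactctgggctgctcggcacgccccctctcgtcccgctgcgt
The Cdk4 stretch holds 4 such E-boxes and the Cdk6 stretch 1. Of 32851 mouse promoters in the same window, 6.02% hold at least 1 and 0.0213% hold 4 or more. The cutoff of 4 is the count in Cdk4 itself, so the latter share is a description and not a test. Neither stretch holds a STAT site (TTCNNNGAA, in 7.02% of promoters) or an E2F site (TTTCCCGC, TTTCGCGC, TTTGCCGC or TTTGGCGC, in 1.86%), on either strand. No match overlaps another, and a match describes letters only, not a bound site.

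Cdk6 was at 10.29 and 10.31 in HSC normal, 11.80 and 11.31 in HSC leukemic, 11.45 and 11.40 in KSL normal, and 11.41 and 11.56 in KSL leukemic. Both arrays of HSC normal were thus the lowest of the 8 by about 1 log2 unit, and the 3 other groups overlapped. In HSC the leukemic minus normal difference was 1.26 ± 0.17 (SE of the fit, n = 2 per group; 95% interval 0.81 to 1.71), with a limma adjusted p of 0.122. In KSL the same difference was 0.06 ± 0.17, and the difference between these differences was 1.20 ± 0.24 (limma adjusted p = 0.329). HSC normal lay 1.13 ± 0.17 below KSL normal (a log2 difference of -1.13; limma adjusted p = 0.0652), whereas HSC leukemic and KSL leukemic differed by 0.06 (95% interval -0.39 to 0.52).

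The other Cdk6 probe sets gave the same picture at a smaller size. Probe set 1455287_at read 10.51 and 10.41 in HSC normal and 11.14 and 11.12 in HSC leukemic, a difference of 0.67. Probe set 1460291_at read 10.48 and 10.32 against 11.08 and 10.86, a difference of 0.57. On neither did the HSC groups overlap. HSC leukemic minus KSL leukemic was -0.32 and 0.02 on these probe sets, so on the first Cdk6 in HSC leukemic stayed below KSL. HSC normal minus KSL normal was -0.85 and -0.64. That comparison passed the test for Cdk6 in 7 of 20 alternative analyses, among them the mean of all probe sets (-0.87, limma adjusted p = 0.0305) and the second probe set (-0.85, adjusted p = 0.0286). Over the 20 alternatives the HSC leukemic minus HSC normal difference ran from 0.67 to 1.50 with adjusted p from 0.0279 to 0.555, and passed in the 2 that left out an HSC leukemic array.

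Cdk4 was at 11.37 and 11.17 in HSC normal, 10.77 and 10.59 in HSC leukemic, 11.23 and 11.06 in KSL normal, and 11.42 and 11.21 in KSL leukemic. Here it was HSC leukemic that stood apart, with both arrays below the other 6. The leukemic minus normal difference in HSC was -0.59 ± 0.13 (limma adjusted p = 0.195), and HSC leukemic minus KSL leukemic was -0.64 ± 0.13 (adjusted p = 0.0664). In KSL the leukemic minus normal difference was 0.17 ± 0.13 (adjusted p = 0.951). The probe set used, 1422441_x_at, is of a kind that can share sequence with other transcripts. The other probe sets of Cdk4 gave -0.61 (1422439_a_at) and -0.76 (1422440_at) in HSC, and no HSC leukemic array reached an HSC normal array on them. HSC leukemic minus KSL leukemic was -0.54 and -1.07 on these. It passed with the mean of all probe sets (-0.75, limma adjusted p = 0.0309), and over the 20 alternatives adjusted p ran from 0.0288 to 0.276.

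The balance between the kinases can be followed on each array as log2 Cdk6 minus log2 Cdk4, set to 0 at the mean of KSL normal. It was -1.37 and -1.15 in HSC normal and 0.75 and 0.43 in HSC leukemic. The KSL arrays lay between -0.29 and 0.07. The zero point is arbitrary, because probe sets of different genes are not on a common scale, and only the shift between groups can be read. This measure was formed after the values were seen and was not tested.

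**Figure D2:**
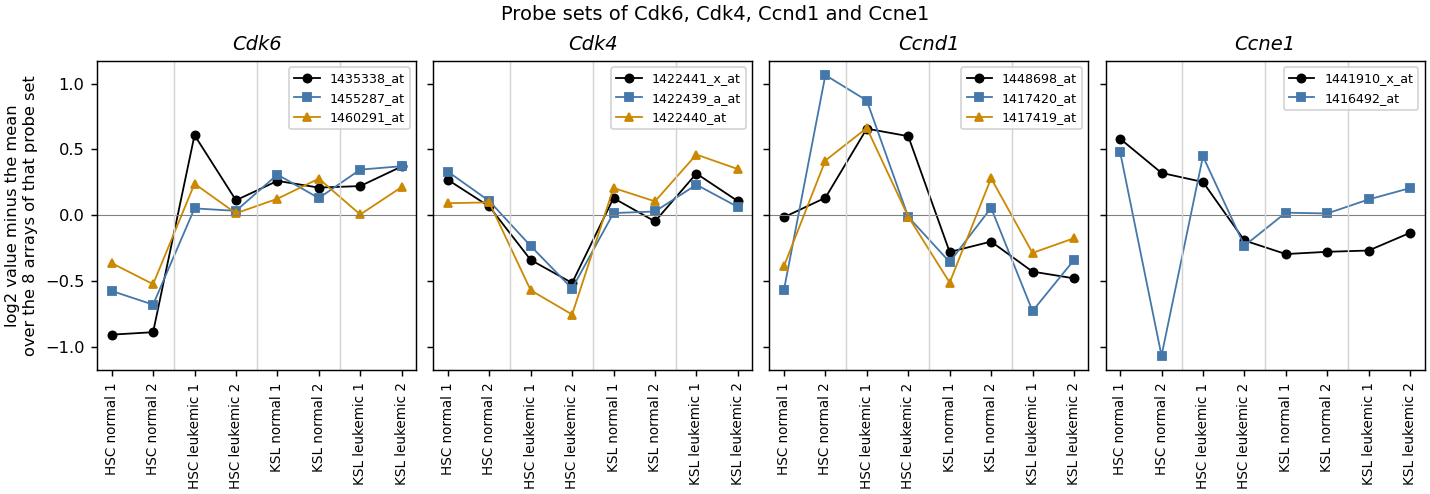
Every probe set of Cdk6, Cdk4, Ccnd1 and Ccne1 on the 8 arrays, as log2 value minus its own mean over the arrays; points are arrays and lines join 1 probe set. In HSC leukemic minus HSC normal the 3 probe sets of Cdk4 give -0.59, -0.61 and -0.76. Those of Cdk6 share a direction but not a size (1.26, 0.67 and 0.57). Those of Ccnd1 share a direction there but part on single HSC arrays, and those of Ccne1 part in direction (-0.42 and 0.40).

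Among the D-type cyclins, Ccnd1 was at 8.29 and 8.44 in HSC normal, 8.96 and 8.90 in HSC leukemic, 8.02 and 8.10 in KSL normal, and 7.88 and 7.82 in KSL leukemic. No groups overlapped, and the order from low to high was KSL leukemic, KSL normal, HSC normal, HSC leukemic. In leukemic mice Ccnd1 was higher in HSC than in KSL by 1.08 ± 0.07 (limma adjusted p = 0.00839, higher on 2 of 2 arrays). HSC normal minus KSL normal was 0.30 ± 0.07 (adjusted p = 0.127). Leukemic minus normal was 0.57 ± 0.07 in HSC (adjusted p = 0.0944) and -0.21 ± 0.07 in KSL (adjusted p = 0.532), and the difference between these was 0.78 ± 0.09 (adjusted p = 0.176).

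The Ccnd1 call rested on 1 probe set, and some alternatives with a difference of similar size lost the call. It was lost without KSL leukemic replicate 1 (1.11, limma adjusted p = 0.0783) or replicate 2 (1.06, 0.0684), with the 4 arrays of the comparison alone or without the male arrays (1.08, 0.0541 in each). The mean of all probe sets gave 0.87 (0.243), and the second probe set 0.96 (0.506). This second probe set, 1417420_at, read 8.48 and 7.60 in HSC leukemic against 7.05 and 8.67 in HSC normal, which overlap, and 6.88 and 7.27 in KSL leukemic. On 1417419_at HSC leukemic minus KSL leukemic was 0.56, so the direction was shared by all 3. Leukemic minus normal in HSC was 0.18 on 1417420_at and 0.31 on 1417419_at.

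Ccnd3 was at 9.07 and 9.27 in HSC normal, 9.89 and 9.41 in HSC leukemic, 8.97 and 8.81 in KSL normal, and 8.91 and 8.92 in KSL leukemic. The HSC leukemic arrays were the highest but lay 0.48 apart. The leukemic minus normal difference was 0.48 ± 0.18 in HSC (limma adjusted p = 0.357) and 0.02 ± 0.18 in KSL. HSC leukemic minus KSL leukemic was 0.74 ± 0.18 (adjusted p = 0.0999). The other Ccnd3 probe sets gave larger differences in HSC, 1.24 on 1444323_at and 1.43 on 1438805_at. On 1444323_at the HSC groups overlapped, at 6.88 and 7.56 against 9.51 and 7.42.

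The arrays of all 4 groups overlapped for Ccnd2 on the probe set used. It was at 10.15 and 10.67 in HSC normal, 10.40 and 10.41 in HSC leukemic, 10.34 and 10.41 in KSL normal, and 10.44 and 10.38 in KSL leukemic. The leukemic minus normal difference was -0.01 ± 0.18 in HSC (95% interval -0.47 to 0.45) and 0.03 ± 0.18 in KSL (-0.43 to 0.49). Its 6 other probe sets gave between -0.50 and 0.17 in HSC, with 5 below 0 and 1430127_a_at above. On 1455956_x_at, 1434745_at and 1448229_s_at both HSC leukemic arrays lay below both of HSC normal, and on the others these groups overlapped. All 7 gave HSC normal above KSL normal, by 0.04 to 0.60.

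The E-type cyclins act with CDK2 at the entry into S phase. Ccne2, read by 1 probe set, was at 6.66 and 6.35 in HSC normal, 6.12 and 5.47 in HSC leukemic, 7.02 and 6.39 in KSL normal, and 6.93 and 7.06 in KSL leukemic. Both HSC leukemic arrays were the lowest of the 8. HSC leukemic minus HSC normal was -0.71 ± 0.32 (limma adjusted p = 0.432), and HSC leukemic minus KSL leukemic was -1.20 ± 0.32 (adjusted p = 0.116), with replicates up to 0.65 apart. Ccne1 was at 8.41 and 8.15 in HSC normal, 8.09 and 7.64 in HSC leukemic, 7.54 and 7.56 in KSL normal, and 7.57 and 7.70 in KSL leukemic. HSC normal minus KSL normal was 0.74 ± 0.18 (adjusted p = 0.146). This probe set, 1441910_x_at, is also of the kind that can share sequence. The second Ccne1 probe set, 1416492_at, gave -0.31 there, with HSC normal at 8.26 and 6.71, so the direction for Ccne1 depends on the probe set.

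Cdk2 was at 8.43 and 8.32 in HSC normal, 8.73 and 8.38 in HSC leukemic, 8.72 and 8.89 in KSL normal, and 8.46 and 8.54 in KSL leukemic. HSC normal minus KSL normal was -0.43 ± 0.14 (limma adjusted p = 0.242). Leukemic minus normal was 0.18 ± 0.14 in HSC and -0.31 ± 0.14 in KSL (adjusted p = 0.652 and 0.733). The other Cdk2 probe set lay at the lowest value of the table on all 8 arrays and gives no check.

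Rb1, the target of these kinases, was at 6.62 and 6.60 in HSC normal, 6.96 and 6.29 in HSC leukemic, 6.77 and 6.94 in KSL normal, and 7.11 and 7.13 in KSL leukemic. The HSC leukemic arrays lay 0.67 apart and spanned both arrays of HSC normal. Leukemic minus normal was 0.02 ± 0.23 in HSC (95% interval -0.58 to 0.62) and 0.27 ± 0.23 in KSL (limma adjusted p = 0.991). HSC leukemic minus KSL leukemic was -0.49 ± 0.23 (adjusted p = 0.294). The second Rb1 probe set, 1444400_at, gave 0.97 in HSC, from 4.57 and 4.97 to 6.49 and 4.99.

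**Figure D3:**
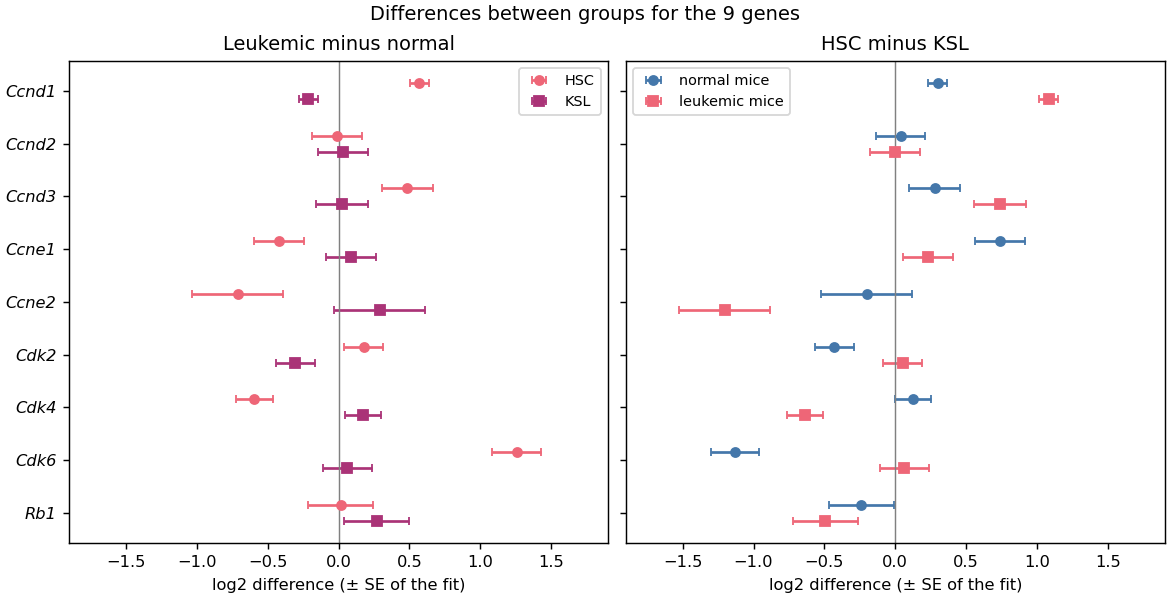
Log2 differences of the 9 genes, with points for the fitted difference and bars for its standard error (n = 2 arrays per group). The left panel shows leukemic minus normal in HSC and in KSL, and the right panel HSC minus KSL in normal and in leukemic mice. Cdk6 is at 1.26 in HSC and 0.06 in KSL on the left, and at -1.13 in normal and 0.06 in leukemic mice on the right.

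Counted over the 9 genes, limma passed 0 in HSC leukemic minus HSC normal, where 0.0989% of all 18193 genes passed. The raw p was below 0.05 for 4 of them (Ccnd1, Ccnd3, Cdk4 and Cdk6), against 13.8% of all genes. In KSL leukemic minus KSL normal limma passed 0 (0.044% of all genes), and the raw p was below 0.05 for 1, Ccnd1 (7.95%). For the average of both differences it passed 0 (0.0824%), and the raw p was below 0.05 for 2, Ccnd1 and Cdk6 (12.6%). For the HSC difference minus the KSL difference it passed 0 (0.0055%), and the raw p was below 0.05 for 3, Ccnd1, Cdk4 and Cdk6 (9.09%). In HSC normal minus KSL normal it passed 0 (1.8%), and the raw p was below 0.05 for 4, Ccnd1, Ccne1, Cdk2 and Cdk6 (16.2%). In HSC leukemic minus KSL leukemic it passed 1, Ccnd1 (5.86%), and the raw p was below 0.05 for 4, Ccnd1, Ccnd3, Ccne2 and Cdk4 (23.0%). The comparisons share arrays and are not independent of each other. The median over the 9 genes was 0.02 in HSC and 0.06 in KSL for leukemic minus normal, with a median of 0.00 over all genes in both.

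Other genes of the G1 to S pathway were read from 5 lists. Of the 7 CDK inhibitors, limma passed 0 in each of the 6 comparisons (0.0055% to 5.86% of all genes). The raw p was below 0.05 for 2 in HSC leukemic minus HSC normal (13.8% of all genes). It was below 0.05 for 1 in KSL leukemic minus KSL normal (7.95%). In HSC 6 of 7 were higher in leukemic mice (46.3% of all genes), with a median of 0.44. Cdkn1b, which encodes the CDK2 inhibitor p27, was at 9.23 and 9.38 in HSC normal, 9.64 and 9.85 in HSC leukemic, 9.95 and 9.99 in KSL normal, and 9.22 and 9.39 in KSL leukemic. Leukemic minus normal was thus 0.44 ± 0.10 in HSC and -0.67 ± 0.10 in KSL (limma adjusted p = 0.211 and 0.225), and the difference between these was 1.11 ± 0.15 (adjusted p = 0.211). Cdkn1a, the p53 target gene of p21, had 0.69 ± 0.18 in HSC (adjusted p = 0.229). Cdkn1c, the gene of p57, which is known from quiescent stem cells, was at 6.39 and 5.48 in HSC normal against 4.31 and 4.43 in KSL normal, a difference of 1.57 ± 0.33 (adjusted p = 0.116).

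Among 12 pocket protein and E2F genes, 6 were higher and 6 lower in HSC than in KSL of leukemic mice, and 1 of the lower ones passed the test (5.86% of all genes). Limma passed 0 in the other 5 comparisons (0.0055% to 1.8% of all genes), with 3 at a raw p below 0.05 in HSC leukemic minus HSC normal (13.8%). The gene that passed was Tfdp1, the dimer partner of E2F, at -0.82 ± 0.14 (limma adjusted p = 0.0456). E2f7, a repressor of the family, was at 5.78 and 6.85 in HSC normal and 7.57 and 8.54 in HSC leukemic, a difference of 1.74 ± 0.54 (adjusted p = 0.282), and its replicates lay about 1 log2 unit apart. Rbl1, the gene of the RB1 relative p107, had -0.52 ± 0.18 in HSC (adjusted p = 0.331).

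Of 16 measured regulators of G1 cyclins and kinases, 5 were higher and 11 lower in HSC than in KSL of normal mice, and 1 of the higher ones passed (1.8% of all genes). In leukemic mice 6 were higher and 10 lower, and 1 higher and 2 lower ones passed (5.86% of all genes). Mycn, a MYC family factor, was the higher one that passed in both, by 2.10 ± 0.10 in normal mice (limma adjusted p = 0.00952) and 2.59 ± 0.10 in leukemic mice (adjusted p = 0.00525). The lower ones that passed in leukemic mice were Mnat1, a subunit of the CDK-activating kinase, at -0.98 ± 0.10 (adjusted p = 0.0168), and Cks1b, a CDK-binding subunit needed for the breakdown of p27, at -0.56 ± 0.07 (adjusted p = 0.0265). Myc itself was singled out after its values were seen, because MYC binds the E-box shown above. For leukemic minus normal Myc had -0.08 ± 0.18 in HSC and -0.16 ± 0.18 in KSL (limma adjusted p = 0.943 and 1.0). Whether MYC or MYCN acts on Cdk4 or Cdk6 in these cells was not tested.

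The E2F targets of S phase, the genes that RB1 and its relatives hold down, were mostly lower in HSC than in KSL. Of 22 measured, 20 were lower in HSC than in KSL of normal mice (41.8% of all genes), with a median of -0.47, and 21 in leukemic mice (41.2%), with a median of -0.53. Limma passed 0 in normal mice (1.8% of all genes), where the raw p was below 0.05 for 8 (16.2%). In leukemic mice limma passed 4 (5.86% of all genes), all lower in HSC. These were Gins1, a replication helicase subunit, at -1.61 ± 0.17 (limma adjusted p = 0.0183), Gins2 of the same complex at -1.22 ± 0.21 (0.0472), the thymidine kinase gene Tk1 at -0.73 ± 0.11 (0.0396), and the ribonucleotide reductase gene Rrm2 at -1.63 ± 0.28 (0.0478). For leukemic minus normal the median was -0.14 in HSC, with 16 of 22 lower (45.8% of all genes), and 0.06 in KSL. Limma passed 0 in each (0.0989% and 0.044% of all genes), and the raw p was below 0.05 for 3 and 0 (13.8% and 7.95%). The smallest p in HSC was that of the thymidylate synthase gene Tyms, at 1.29 ± 0.21 (adjusted p = 0.141), against the direction of the list. The summed linear signal of the 22 targets was 22548 to 22817 in HSC leukemic and 24775 to 24964 in HSC normal. It was 29838 to 32936 in KSL normal and 30706 to 31245 in KSL leukemic.

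Later cyclins and kinases, which act in S phase and mitosis, were also mostly lower in HSC. Of 11 measured, 10 were lower in HSC than in KSL in normal mice (median -0.60; 41.8% of all genes) and 10 in leukemic mice (median -0.48; 41.2%). In each, 1 of 11 passed, against 1.8% and 5.86% of all genes. It was the spindle checkpoint kinase gene Bub1, at -1.26 ± 0.13 (limma adjusted p = 0.0314) and -1.18 ± 0.13 (0.0226). For leukemic minus normal the median was 0.12 in HSC and 0.01 in KSL, and limma passed 0 in each (0.0989% and 0.044% of all genes). The raw p was below 0.05 for 1 and 0 (13.8% and 7.95% of all genes).

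**Figure D4:**
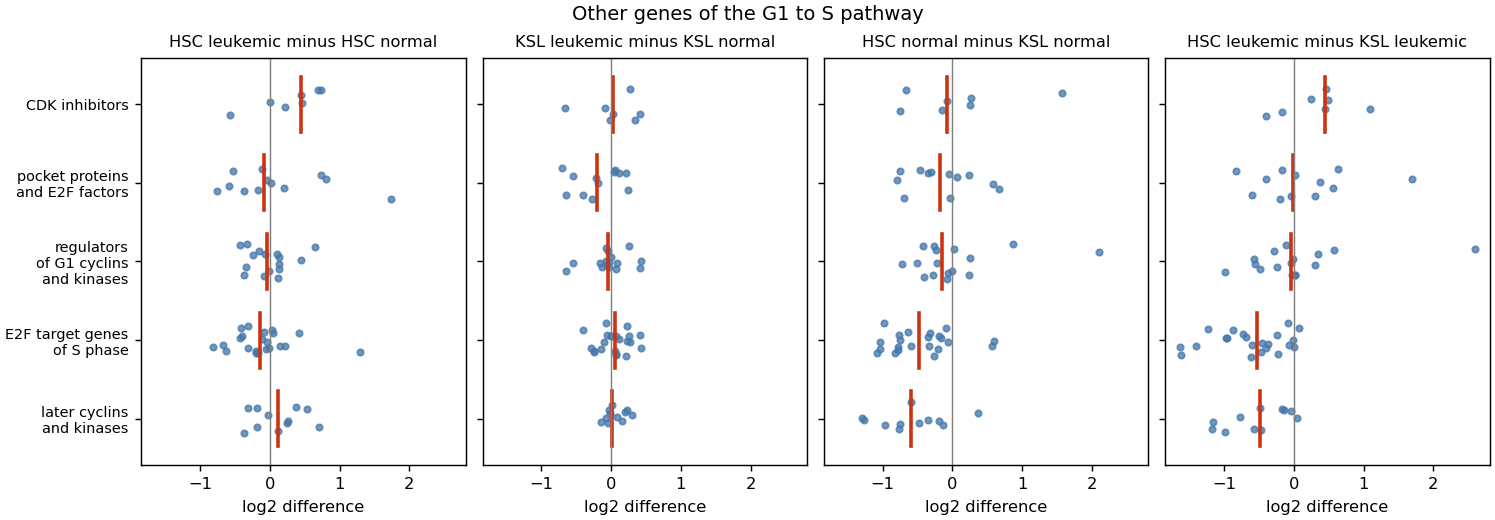
Log2 differences of the genes in the 5 pathway lists, with 1 panel per comparison. Points are genes, spread vertically for legibility, and red bars are list medians. The E2F targets lie mostly left of 0 in both panels of HSC minus KSL (medians -0.47 and -0.53) and near 0 for leukemic minus normal (-0.14 and 0.06).

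Markers of other cells also differed in level between the HSC groups on whose arrays Cdk6, Cdk4 and Ccnd1 differed. All 8 granulocyte-monocyte progenitor markers were higher in HSC leukemic than in HSC normal (46.3% of all genes), with a median of 1.83. Limma passed 0 of these 8 (0.0989% of all genes), with 7 at a raw p below 0.05 (13.8%). Their summed linear signal was 2037 to 2466 in HSC normal, 4996 to 7432 in HSC leukemic, 33723 to 37818 in KSL normal and 43644 to 46722 in KSL leukemic. For 8 mature neutrophil and monocyte markers it was 565 to 10110 in HSC normal and 13283 to 19134 in HSC leukemic. Of 8 long-term HSC markers 7 were lower in HSC leukemic (45.8% of all genes). Their sums were 6353 to 7502 in HSC normal, 3905 to 4714 in HSC leukemic and 1023 to 1147 in KSL normal. The 5 B cell markers were all higher in HSC leukemic, with sums of 279 to 345 in HSC normal and 719 to 973 in HSC leukemic. For 5 megakaryocyte markers the sums were 4376 to 8048 and 8756 to 9128. The 4 mast cell and basophil markers were all higher, with a median of 1.27 and sums of 109 in HSC normal and 148 to 430 in HSC leukemic. The 5 erythroid markers were all lower, with a median of -0.23 and sums of 768 to 5169 and 858 to 1217. Of 5 stroma and endothelium markers 2 were higher and 3 lower, with sums of 525 to 563 and 624 to 716. Limma passed 0 in HSC leukemic minus HSC normal for each of these lists (0.0989% of all genes). The raw p was below 0.05 for 2 neutrophil and monocyte, 3 long-term HSC and 3 B cell markers. It was also below 0.05 for 1 megakaryocyte, 1 mast cell and basophil, 1 erythroid and 1 stroma and endothelium marker. In this comparison 13.8% of all genes had a raw p below 0.05, 46.3% were higher and 45.8% lower. No marker of these lists was at the lowest value of the table on both arrays of an HSC group. Sums of the 6 multipotent and lymphoid progenitor markers were 950 to 1448 in HSC normal and 854 to 1385 in HSC leukemic, where Il7r and Rag1 were at that lowest value. Sums of the 6 T and NK cell markers were 199 to 201 and 220 to 229, with Ncr1 at the lowest value in both groups. The 3 prime minus 5 prime signal of the Tfrc control probe sets, a reading of RNA quality, was -2.04 and -1.74 in HSC normal and -0.36 and -0.75 in HSC leukemic. The same for Gapdh was 0.78 and 0.83 against 1.19 and 1.03. For Actb it was lower in HSC leukemic, at -0.37 and -0.38 against -0.42 and -0.50. The part of these in the values of the 9 genes was not tested.

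The genes whose values over the 8 arrays were most like a member were sought for the 3 members with the widest range of group means, among 15489 genes. The arrays share the noise of their sort and amplification, and with so few of them a high correlation is a description only. For Cdk6 these were Sinhcaf (Pearson r = 0.984), Tle3 (0.969) and Stil (0.966). Sinhcaf had group means of 8.37 in HSC normal, 9.58 in HSC leukemic, 9.41 in KSL normal and 9.42 in KSL leukemic, and Stil, which encodes a centriole assembly protein, 6.33, 7.62, 7.78 and 7.84 in that order. For Ccne2 they were Pus10 (r = 0.988), Ndufs1 (0.975) and the stress-response gene Gadd45a (0.963). For Ccnd1 they were Insyn2a (0.991), Ttyh3 (0.991) and Lims1 (0.990).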

How the data were processed

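The authors deposited 1 table of log2 values for 45101 probe sets on 8 arrays; RMA is named, without a version, in the submitters' processing notes, and the sources used here name no other step. The lowest value in the table is 10.0 on the linear scale (3.32 in log2). Nugen Ovation Pico amplification is named in the design text and a standard Affymetrix labelling in the labels' protocols, which leaves the amplification unsettled. The disease state label set the groups of leukemic and normal KSL cells, since the KSL leukemic titles carry both wordings. Descriptions that mention embryos were set aside. The platform annotation gave 34945 probe sets 1 symbol, 932 several and 9160 none.

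Each gene's probe set with the highest mean entered a limma 3.58.1 model (R 4.3.3) with a mean for each of the 4 groups, moderated by eBayes, and two-sided p-values were adjusted by Benjamini-Hochberg over 18193 genes. Errors are standard errors of that fit, whose precision is limited by the number of arrays. Leukemic was compared with normal in HSC, in KSL, on average and between both, and HSC with KSL in normal and in leukemic mice; the alternatives left out single arrays, changed the model, scaling, gene filter or probe set. The code was tested on simulated data. The 9 genes, the lists and the alternatives were chosen with earlier results of these data known. The naming rule took the 9 genes, list genes that passed in any comparison, and otherwise up to 4 per list and comparison with the smallest p, not all of which are printed. The sources do not say that a replicate number marks a shared animal, and the arrays were not treated as paired.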

Additional observations from a re-analysis of the deposited data

How the results depend on the processing

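Up to 20 other ways of processing were run for each of the 9 genes in each of 6 comparisons. Of the resulting differences, 987 kept their direction and their side of the threshold, 49 changed sign, 14 came to pass and 6 no longer passed. Many settings could not change a difference between groups. Some left out an array of another group, used the replicate number as a block or fitted only the arrays compared. Others changed the eBayes moderation, weighted arrays equally within each group or filtered genes. In these only the standard error and p could move, so the 987 overstates how often a direction was tested. A probe set of Cdk2 at the floor gave no second value. Ccne2 has 1 probe set, so the second probe set and the mean of all probe sets repeat its values and check nothing. The cause of these changes was not tested.

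The number of the 9 genes that passed ran, with 1 array left out, from 0 to 1 in HSC leukemic minus HSC normal (Cdk6, without either HSC leukemic array), from 0 to 1 for the average, from 0 to 1 in HSC normal minus KSL normal and from 0 to 2 in HSC leukemic minus KSL leukemic; a group left with 1 array takes its spread from the rest. In HSC normal minus KSL normal it was 1 (Cdk6) with the common median, without genes at the floor, without the lowest 40% of genes, with the mean of all probe sets and with the second probe set. In HSC leukemic minus KSL leukemic it was 0 without the male arrays, with the 4 arrays compared and with the second probe set. The replicate number as a block gave 2 there (Ccnd1, and Cdk4 at -0.64, limma adjusted p = 0.0288) and changed no other count of the 9, but deviations of same-numbered arrays correlated only between -0.04 and 0.09. Replicate 1 of both normal groups was male in pattern, and whether a number marks a shared source is not stated. Over all genes, limma passed 18 in HSC leukemic minus HSC normal (0 to 257 over the alternatives), 8 in KSL (0 to 125), 15 for the average (0 to 144), 1 for the HSC minus the KSL difference (0 to 68), 328 in HSC normal minus KSL normal (0 to 546) and 1067 in HSC leukemic minus KSL leukemic (0 to 1316).

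These differences changed sign. With 1 array left out, Ccnd2 ran from -0.27 to 0.25 in HSC leukemic minus HSC normal, -0.0019 to 0.065 in KSL leukemic minus KSL normal, -0.12 to 0.14 for the average, -0.30 to 0.22 for the HSC minus the KSL difference, -0.22 to 0.30 in HSC normal minus KSL normal and -0.033 to 0.026 in HSC leukemic minus KSL leukemic. Ccnd3 ran from -0.058 to 0.10 in KSL. Ccne2 ran from -0.028 to 0.61 in KSL and from -0.52 to 0.12 in HSC normal minus KSL normal. Cdk2 ran from -0.00094 to 0.36 in HSC, -0.15 to 0.025 for the average and -0.13 to 0.23 in HSC leukemic minus KSL leukemic. Cdk6 ran from -0.014 to 0.13 in KSL and from -0.18 to 0.31 in HSC leukemic minus KSL leukemic. Rb1 ran from -0.32 to 0.35 in HSC, -0.026 to 0.31 for the average and -0.59 to 0.082 for the HSC minus the KSL difference.

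With the second probe set, Ccnd1 had -0.10 for the average. Ccnd2 had -0.28 in KSL, -0.15 for the average, 0.25 for the HSC minus the KSL difference and 0.43 in HSC leukemic minus KSL leukemic. Ccnd3 had -0.033 in KSL. Ccne1 had 0.40 in HSC, 0.27 for the average, 0.25 for the HSC minus the KSL difference, -0.31 in HSC normal minus KSL normal and -0.055 in HSC leukemic minus KSL leukemic. Cdk6 had -0.32 in HSC leukemic minus KSL leukemic, and Rb1 0.81 for the HSC minus the KSL difference. The mean of all probe sets gave Ccnd2 -0.050 in KSL, -0.10 for the average and 0.20 in HSC leukemic minus KSL leukemic, Ccne1 0.053 for the average, Cdk6 -0.078 in HSC leukemic minus KSL leukemic and Rb1 0.28 for the HSC minus the KSL difference. A term for the male arrays gave Ccnd2 -0.12 in KSL and -0.14 for the average, Ccne2 0.028 for the average and Rb1 -0.023 in HSC. Without the male arrays Ccnd2 had -0.0019 in KSL and -0.14 for the average, and Ccne2 0.028 for the average. Ccnd2 in HSC was 0.037 with the common median and 0.0040 with cyclic loess.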
